A study of Mus musculus with 13 samples.

Results

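Complex I is the first enzyme of the respiratory chain, and its subunits are encoded in the nucleus and in the mitochondrial genome. Members were all genes whose mouse symbol starts with Ndufa, Ndufb, Ndufc, Ndufs, Ndufv or mt-Nd, with the Ndufaf assembly factors left out. This gave 49 of the 43430 genes in the deposited count table, 42 nuclear and 7 mitochondrial. Of the 11906 genes with enough counts to be tested, 37 were nuclear and 6 were mitochondrial members.

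Polyadenylated RNA was sequenced from about 100K alveolar macrophages per library, sorted by flow cytometry from lungs of male C57Bl/6 mice aged 10 weeks. Mice drank water with metformin (100 mg/kg/day) or vehicle for 24 h before instillation, and particulate matter (PM) was a NIST reference dust given into the trachea at 10 µg per animal. The 4 groups were metformin then PM (n = 3), vehicle then PM (n = 3), metformin then phosphate-buffered saline (PBS; n = 3) and vehicle then PBS (n = 4). Cells of all 13 libraries were collected 24 h after instillation, and each library is named by its group and its labelled replicate number. The labels call these biological replicates.

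Complex I takes electrons from NADH, passes them through a flavin and a chain of iron-sulfur clusters in its matrix arm to ubiquinone, and pumps protons through its membrane arm. The subunits that carry the electron path are nuclear, whereas the proton-pumping core of the membrane arm is encoded by the mt-Nd genes, and the accessory subunits of both arms are nuclear. Biguanides such as metformin are known as weak inhibitors of complex I, and in macrophages the complex is known as a source of reactive oxygen species.

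Of the 7 mitochondrial members, mt-Nd3 and mt-Nd4l encode membrane-arm core proteins like the others but were almost empty in the table. Over all 13 libraries mt-Nd3 had 81 counts and mt-Nd4l had 96 counts, against 27522 counts for mt-Nd6 and 96977 for mt-Nd1. A stretch of mouse chromosome 1 holds a copy of part of the mitochondrial genome, annotated as 7 unprocessed pseudogenes, and the sequences are shown because they set which reads can be placed in only 1 gene. In the following pair, read from the GENCODE M21 transcripts (GRCm38), the 75 bases from the middle of mt-Nd3 (chrM:9594-9668, plus strand) and of its copy Gm28438 (chr1:24612910-24612984, minus strand) are the same in every base, at the length of the study's reads. In the mt-Nd4 window (chrM:11006-11080, plus strand), capitals mark the bases beyond the annotated end of the copy Gm28439.
mt-Nd3: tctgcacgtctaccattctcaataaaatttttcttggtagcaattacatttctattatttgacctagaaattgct
Gm28438: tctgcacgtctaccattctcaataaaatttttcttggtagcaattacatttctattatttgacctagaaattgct
mt-Nd4: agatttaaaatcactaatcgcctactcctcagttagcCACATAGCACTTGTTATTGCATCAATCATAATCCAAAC

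Windows were compared only with the annotated chromosome 1 pseudogenes, called the copy below, and not with the bases between them. Of all 75-base windows, 97.8% in mt-Nd3 and 98.7% in mt-Nd4l were identical to the copy. For mt-Nd4, which encodes a large proton-pumping subunit, the share was 61.5%, because the copy covers 876 of its 1378 bases. In mt-Nd1, mt-Nd2, mt-Nd5 and mt-Nd6 no window was identical to the copy. The other mitochondrial protein genes split the same way only in part. mt-Co2, mt-Atp6 and mt-Co3 shared 99.5%, 99.5% and 99.9% of their windows and had 991, 232 and 133 counts in all libraries. mt-Cytb shared none and had 147555 counts, whereas mt-Co1 shared 27.5% and had 290489 counts. mt-Atp8 also shared none and had 19260 counts. It lies next to mt-Co2 and mt-Atp6, which both have pseudogenes, and the bases between those pseudogenes were not compared. The pseudogenes themselves had 2 to 14 counts each over all libraries. How reads that match more than 1 place were counted is not given in the sources used here, and the part of the copy in the low counts was not tested.

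**Figure D1:**
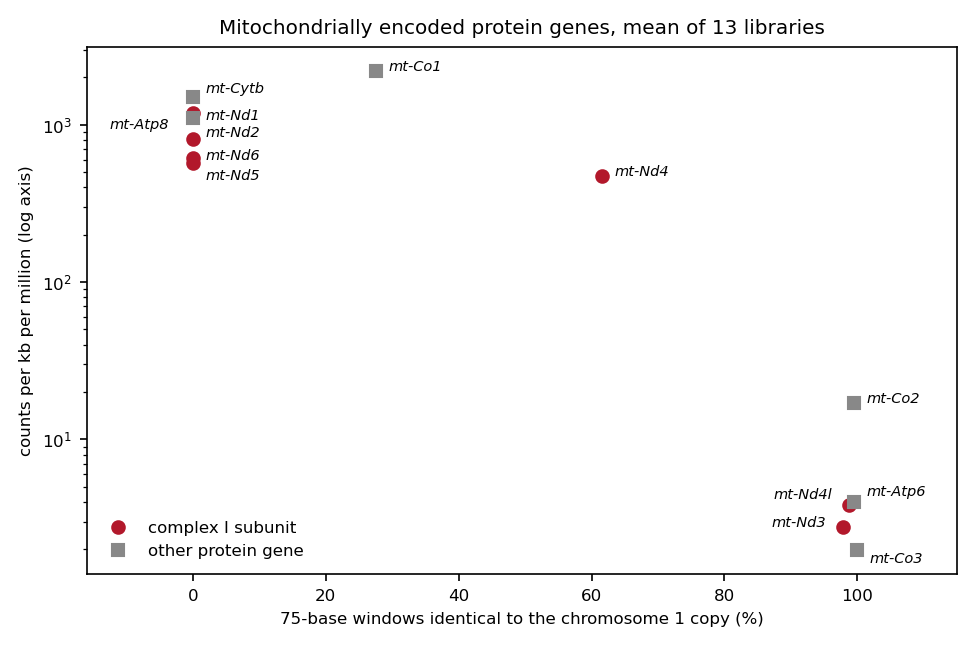
Level of each mitochondrially encoded protein gene, as counts per 1000000 library counts (CPM) per kb of gene length (mean of 13 libraries, log axis). It is set against the percentage of its 75-base windows that are identical to an annotated pseudogene of the chromosome 1 copy. Bases between these pseudogenes were not compared, which bears on mt-Atp8, drawn at 0%. The 2 complex I genes near the right edge, mt-Nd3 at 2.77 and mt-Nd4l at 3.80, lie far below the other 5, which run from 474 for mt-Nd4 to 1180 for mt-Nd1.

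Per kb of gene length, the levels of the mitochondrial members, as mean CPM per kb over 13 libraries, were 1180 ± 81.9 (SD) for mt-Nd1, 814 ± 47.3 for mt-Nd2, 617 ± 47.5 for mt-Nd6, 566 ± 38.7 for mt-Nd5 and 474 ± 33.3 for mt-Nd4. The ranges of the mean ± SD overlapped for the neighbours mt-Nd6 and mt-Nd5 and for no other neighbours in this order. When only windows found in no other transcript were counted as length, a choice made after the data were seen, mt-Nd4 moved from the lowest of these 5 to the highest at 1302, beside 1279 for mt-Nd1, 930 for mt-Nd2, 720 for mt-Nd6 and 600.3 for mt-Nd5. The place of mt-Nd4 among the mitochondrial subunits therefore depended on the length used, while comparisons of mt-Nd4 between groups do not use a length. mt-Nd6 lies on the other strand from the rest and overlaps the end of mt-Nd5 at chrM:13552-13565. The library kit keeps no strand, so reads in that overlap cannot be told apart. Over the rest of mt-Nd6, RNA from the opposite strand would also be counted as mt-Nd6, and its part in the mt-Nd6 values was not tested.

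Between libraries, levels are given below as CPM after TMM scaling, which evens out differences in composition. Libraries held 5567481 to 8100538 counts assigned to genes, and the deepest were metformin PM 1 and 3. Mitochondrially encoded genes took 0.893% to 1.07% of all counts. Of 11 alveolar macrophage markers none was under 1 CPM in every library, and their sum ran from 20830 to 26640 CPM. Of 8 neutrophil markers Ly6g and Retnlg had no count, and S100a9, Mpo and Elane were under 1 CPM in every library. The other 3 were tested, and the list of 8 summed to 26.5 to 45.8 CPM. Of the lymphocyte markers, 8 of 10 were under 1 CPM in every library.

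PM was followed by higher RNA of the mitochondrial members when it was given with metformin. In that comparison mt-Nd1, mt-Nd2, mt-Nd4, mt-Nd5 and mt-Nd6 rose by log2 fold changes of 0.19 to 0.26. These are 5 of 6 mitochondrial members tested, where 7.18% of all 11906 genes rose and 5.60% fell (p under 0.05 after Benjamini-Hochberg adjustment, from the quasi-likelihood test of edgeR). DESeq2 and limma-voom called the same number, 5. The median over the 6 was 0.20, against 0.01 over all genes tested. Among the 37 nuclear members only Ndufa4 rose, and their median was 0.09. At an unadjusted p under 0.05, 4 nuclear members were higher and 0 lower, where 14.3% of all genes were higher and 11.8% lower, and 28 of 37 had a log2 fold change above 0, against 50.9% of all genes. PM libraries lay wholly above PBS libraries in 5 mitochondrial and 7 nuclear members (16.1% of all genes) and wholly below in 1 nuclear member, Ndufb4 (13.9%).

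mt-Nd1 (ENSMUSG00000064341; chrM:2751-3707, plus strand, in mm10 coordinates of the table) encodes the subunit that borders the ubiquinone channel. It had 1220, 1163 and 1203 CPM in the metformin PM libraries 1, 3 and 4, against 986, 1024 and 1042 CPM in the metformin PBS libraries 1, 3 and 4. All PM values lay above all PBS values. The log2 fold change was 0.23 ± 0.05 (SE; edgeR adjusted p = 0.0028). With vehicle, mt-Nd1 had 1180, 1208 and 1253 CPM in PM libraries 1 to 3, against 1136, 1099, 1138 and 1057 CPM in PBS libraries 1 to 4. These also did not overlap, but the log2 fold change of 0.13 ± 0.04 was not called (edgeR adjusted p = 0.109).

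mt-Nd6 (ENSMUSG00000064368; chrM:13552-14070, minus strand), a small subunit between the pumping core proteins, had 362.9, 336 and 345 CPM in metformin PM libraries, against 300.1, 296 and 276 CPM in metformin PBS libraries. The groups were apart, and the log2 fold change of 0.26 ± 0.06 was the largest of the mitochondrial members in this comparison (edgeR adjusted p = 0.00521). With vehicle it had 327, 332 and 357 CPM in PM libraries, against 292, 305, 328 and 316 CPM in PBS libraries. Here PBS library 3 lay above PM library 1, and the log2 fold change of 0.13 ± 0.05 was not called (edgeR adjusted p = 0.23). Since the polyadenylated libraries keep no strand, all these mt-Nd6 values can include RNA of the opposite strand, as given above.

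mt-Nd5 (ENSMUSG00000064367; chrM:11742-13565, plus strand) encodes the pumping subunit at the far end of the membrane arm. It had 1119, 1091 and 1062 CPM in metformin PM libraries, against 894, 1021 and 937 CPM in metformin PBS libraries, a log2 fold change of 0.20 ± 0.05 (edgeR adjusted p = 0.0191). With vehicle it had 1112, 1075 and 1127 CPM in PM libraries, against 1021, 1025, 1030.0 and 944 CPM in PBS libraries. The groups were apart in both drinking-water arms, though with vehicle the log2 fold change of 0.14 ± 0.05 was not called (edgeR adjusted p = 0.147).

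mt-Nd2 (ENSMUSG00000064345; chrM:3914-4951, plus strand), another pumping subunit, had 879, 895 and 938 CPM in metformin PM libraries, against 758, 796 and 811 CPM in metformin PBS libraries (log2 fold change 0.20 ± 0.05; edgeR adjusted p = 0.0193). It had 857, 824 and 894 CPM in vehicle PM libraries, against 823, 857, 889 and 788 CPM in vehicle PBS libraries. The vehicle groups overlapped almost wholly (0.03 ± 0.05; edgeR adjusted p = 0.826).

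mt-Nd4 (ENSMUSG00000064363; chrM:10167-11544, plus strand) had 685, 668 and 651 CPM in metformin PM libraries, against 535, 608 and 615 CPM in metformin PBS libraries (log2 fold change 0.19 ± 0.06; edgeR adjusted p = 0.0283). It had 711, 690.1 and 676 CPM in vehicle PM libraries, against 681, 676, 680 and 640 CPM in vehicle PBS libraries. Of the 4 groups, metformin PBS stood lowest in every library, with metformin PBS 1 at the bottom, while the other 3 groups overlapped. The vehicle difference was 0.05 ± 0.05 and was not called (edgeR adjusted p = 0.714). mt-Nd4l was tested on 96 counts, and its interval for PM on metformin, −1.03 to 1.28 on the log2 scale, shows that no change of this size could be seen at this depth.

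**Figure D2:**
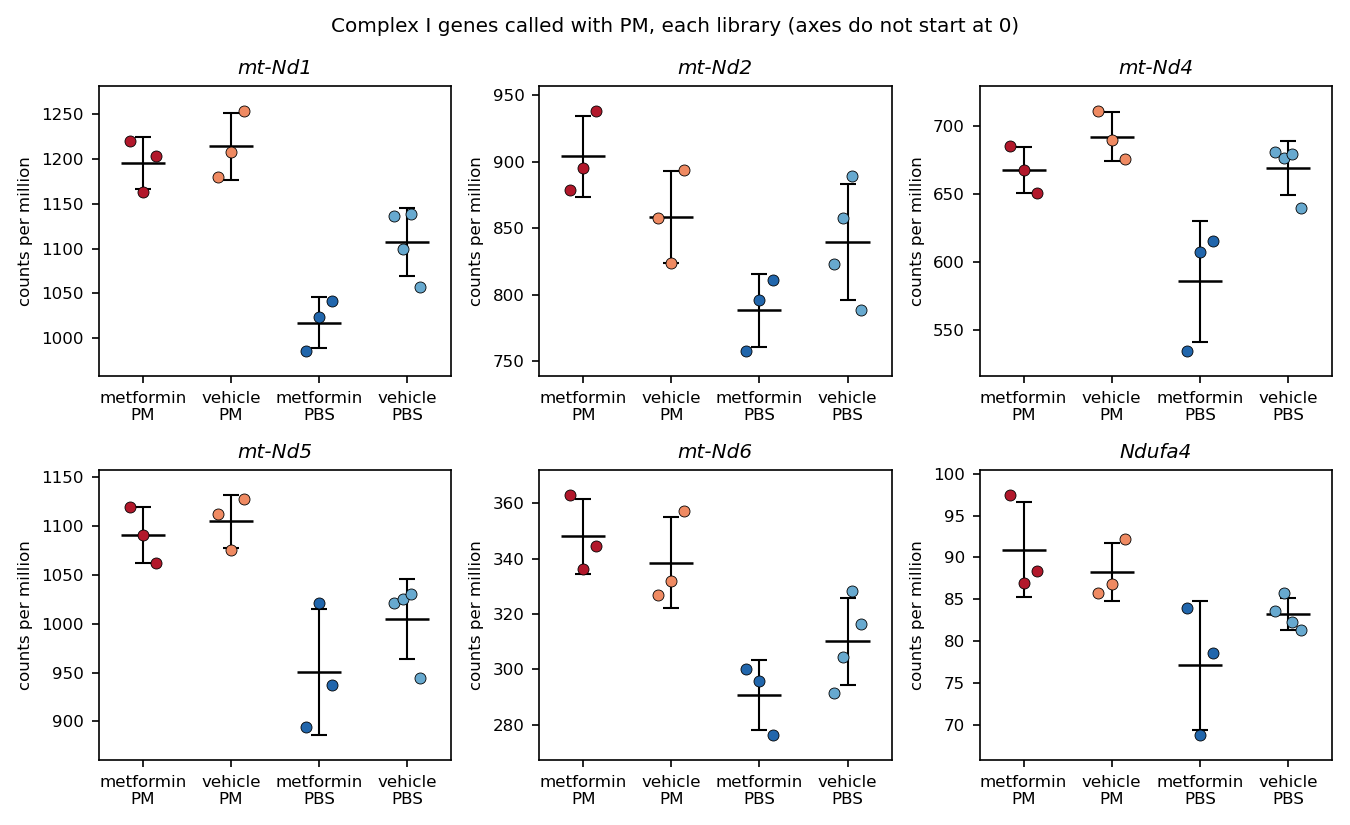
CPM of the 6 complex I genes called with PM, 1 point per library, in metformin PM, vehicle PM, metformin PBS and vehicle PBS libraries from left to right, with the mean (line) and SD (bars); the axes do not start at 0. Metformin PBS has the lowest mean in all 6 panels, and in mt-Nd1 every PM library lies above every PBS library.

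Averaged over both kinds of drinking water, the same 5 mitochondrial members and Ndufa4 rose with PM, where 8.63% of all genes tested rose and 7.76% fell. DESeq2 and limma-voom also called 5 mitochondrial members and 1 nuclear member. The log2 fold changes were 0.19 ± 0.04 for mt-Nd6, 0.18 ± 0.03 for mt-Nd1, 0.17 ± 0.04 for mt-Nd5, 0.12 ± 0.04 for mt-Nd4 and 0.11 ± 0.04 for mt-Nd2. The edgeR adjusted p was 0.000624 for mt-Nd1, 0.00193 for mt-Nd6, 0.00348 for mt-Nd5, 0.0359 for mt-Nd4 and 0.0386 for mt-Nd2. For mt-Nd1, mt-Nd5 and Ndufa4 all 6 PM libraries lay above all 7 PBS libraries, which was so for 2.12% of genes tested, and no member had the opposite order (1.68%). Calls of mt-Nd1, mt-Nd5 and mt-Nd6 held in all 21 alternatives run. Those of mt-Nd2 and mt-Nd4 did not, and with vehicle PBS 2, vehicle PBS 4, metformin PBS 1, vehicle PM 1, vehicle PM 3 or any metformin PM library left out only 3 mitochondrial members were called.

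In the comparison of PM on metformin, mt-Nd1 and mt-Nd6 were called in all 22 alternatives. Only those 2 were called without metformin PBS 1 or without metformin PM 3, and 3 members were called without metformin PM 1, without metformin PM 4 or when the fit held only these 2 groups.

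With vehicle, no complex I member was called for PM, where 2.60% of all genes tested rose and 2.26% fell. DESeq2 and limma-voom also called 0. At an unadjusted p under 0.05 by edgeR, 3 of 6 mitochondrial members (mt-Nd1, mt-Nd5 and mt-Nd6) and 5 of 37 nuclear members were higher, and none was lower, against 8.11% of all genes higher and 8.54% lower. Medians were 0.09 for the mitochondrial and 0.08 for the nuclear members, and −0.001 over all genes. Of the nuclear members 30 of 37 were above 0, against 49.6% of all genes. PM libraries lay wholly above PBS libraries in 2 mitochondrial and 5 nuclear members (7.33% of all genes) and wholly below in none (7.62%).

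The difference between the PM effects, metformin minus vehicle, was tested directly, and no member was called, where 0.890% of all genes had a more positive and 0.546% a more negative PM effect with metformin. DESeq2 and limma-voom also called 0. All 6 mitochondrial members tested had a positive difference, with a median of 0.14, and 1 of them, mt-Nd2 (0.17 ± 0.07; unadjusted p = 0.0368; edgeR adjusted p = 0.377), had an unadjusted p under 0.05, where 6.29% of all genes had a more positive and 5.30% a more negative effect at that level and 51.4% lay above 0. Among the nuclear members 1 had an unadjusted p under 0.05, Ndufb4, 17 of 37 lay above 0, and the median was −0.02. The 95% intervals of the difference were −0.04 to 0.24 for mt-Nd1, −0.02 to 0.30 for mt-Nd4, −0.09 to 0.22 for mt-Nd5 and −0.03 to 0.30 for mt-Nd6. The rise that passed the test with metformin and not with vehicle is therefore not shown to differ between the arms.

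Summed over the 7 mitochondrial members, the level was 4154 to 4266 CPM in metformin PM libraries, 4130 to 4309 CPM in vehicle PM libraries, 3475 to 3747 CPM in metformin PBS libraries and 3748 to 4066 CPM in vehicle PBS libraries. Both PM groups lay above both PBS groups and overlapped each other, and metformin PBS lay just below vehicle PBS. Without Ndufa4, the 36 nuclear members tested summed to 1627 to 1678 CPM in metformin PM and 1615 to 1724 CPM in vehicle PM libraries. They summed to 1509 to 1668 CPM in metformin PBS and 1519 to 1616 CPM in vehicle PBS libraries. These ranges overlapped in every pair of groups except metformin PM and vehicle PBS. Metformin PBS 1 had the lowest mitochondrial sum of all libraries, 3475 CPM, and the highest nuclear sum of the PBS libraries, 1668 CPM.

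**Figure D3:**
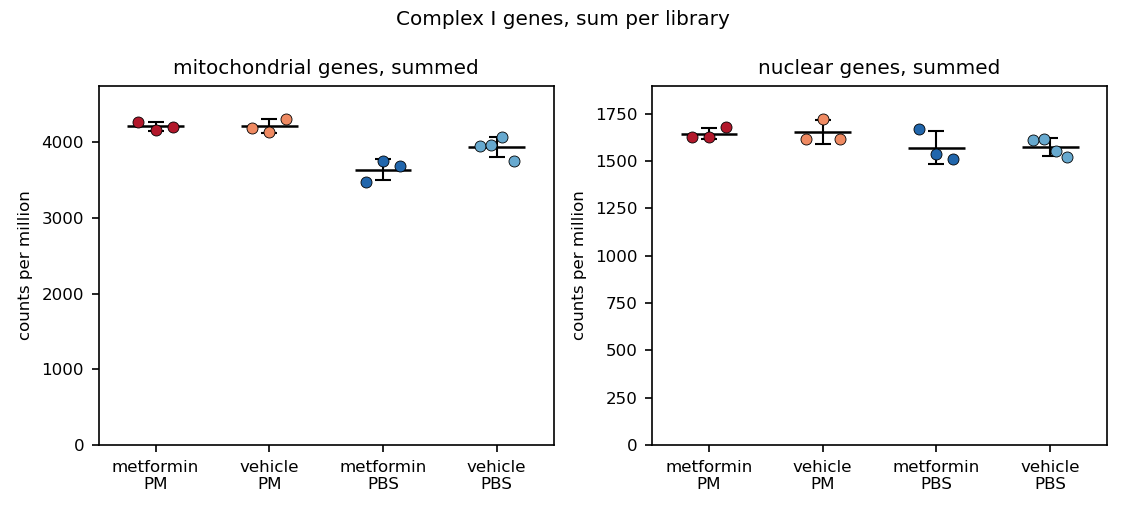
Summed CPM in each library of the 7 mitochondrial complex I genes (left) and of the 36 nuclear ones tested other than Ndufa4 (right). Groups are metformin PM, vehicle PM, metformin PBS and vehicle PBS from left to right, with the mean (line) and SD (bars). Both axes start at 0. The mitochondrial sum is 3475 to 3747 in metformin PBS libraries and 4154 to 4266 in metformin PM libraries.

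Metformin by itself was followed by lower mt-Nd4 and by no other called change among complex I members. After PBS, mt-Nd4 had 535, 608 and 615 CPM in metformin libraries, against 681, 676, 680 and 640 CPM in vehicle libraries. All metformin values lay below all vehicle values, and the log2 fold change was −0.19 ± 0.05 (edgeR adjusted p = 0.0483, just under the threshold), where 1.93% of all genes tested fell and 1.13% rose. DESeq2 and limma-voom also called it. This call was kept in 6 of 22 alternatives, and the adjusted p reached 0.188. Of the fits that each left 1 library out, the one without vehicle PBS 4 kept the call, and the other 12 lost it, while the log2 fold change over all alternatives ran from −0.23 to −0.125. All 6 mitochondrial members tested had a log2 fold change below 0 here, with a median of −0.09, and mt-Nd1 (−0.12 ± 0.04; edgeR adjusted p = 0.149) also had an unadjusted p under 0.05, where 9.51% of all genes were lower and 8.34% higher. Metformin libraries lay wholly below vehicle libraries in 2 mitochondrial and 2 nuclear members (7.55% of all genes) and wholly above in 2 nuclear members (6.20%).

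After PM, no member was called between metformin and vehicle, where 4.08% of all genes rose and 2.81% fell. The count was also 0 by DESeq2 and limma-voom, and at an unadjusted p under 0.05 it was 0 of 6 mitochondrial and 1 of 37 nuclear members, Ndufb10, which was lower (9.54% of all genes were lower and 10.8% higher). Libraries lay wholly apart in 3 nuclear members, 1 higher and 2 lower with metformin, against 13.4% and 13.1% of all genes. Averaged over both instillates mt-Nd4 fell (−0.12 ± 0.04; edgeR adjusted p = 0.0428), where 5.41% of all genes fell and 5.41% rose, but metformin and vehicle libraries overlapped. No member had all metformin libraries above (0.916% of all genes) or below (0.672%) all vehicle libraries. That call was kept in 10 of 21 alternatives. Of the libraries left out 1 at a time, it was kept only without vehicle PBS 4, metformin PBS 3 or metformin PBS 4.

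No nuclear member was called by edgeR, DESeq2 or limma-voom after PBS, after PM or averaged over both instillates. Above 0 were 17 of 37 after PBS (49.0% of all genes), 15 after PM (48.9%) and 16 averaged (49.0%). Averaged over instillates the median log2 fold change was −0.01, against −0.004 over all genes, and the 95% intervals of all 37 ran from −0.27 to 0.33. A single unadjusted p under 0.05 was that of Ndufa6, a matrix-arm accessory subunit (0.17 ± 0.07; edgeR adjusted p = 0.149), against 12.6% of all genes higher at that level. At an unadjusted p under 0.05, 1 nuclear member, Ndufs1, was lower after PBS.

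Of the nuclear core subunits, Ndufv1 binds NADH and the flavin, and Ndufv2 and Ndufs1 hold iron-sulfur clusters next to it. Ndufv1 had 107, 107 and 98.0 CPM in metformin PM libraries, 109.6, 108.5 and 95.3 CPM in vehicle PM libraries, 108, 97.8 and 101 CPM in metformin PBS libraries, and 109, 102, 98.9 and 95.6 CPM in vehicle PBS libraries. All 4 groups overlapped, and the intervals were −0.07 to 0.13 for PM averaged and −0.10 to 0.10 for metformin averaged. Ndufs1 had 98.1, 100.4 and 93.5 CPM in metformin PM libraries and 93.6, 93.3 and 94.9 CPM in metformin PBS libraries. With vehicle, Ndufs1 had 90.7, 100.1 and 97.9 CPM in PM libraries and 101, 104, 99.5 and 103 CPM in PBS libraries. Metformin PBS lay below vehicle PBS in every library, but the log2 fold change of −0.12 ± 0.05 was not called (edgeR adjusted p = 0.256). Ndufv2 was higher with PM averaged by 0.13 ± 0.06 and was not called (edgeR adjusted p = 0.117).

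Ndufs3, Ndufs7 and Ndufs8 are core subunits of the quinone module, the part that passes electrons to ubiquinone. None was called in any comparison, and none had an unadjusted p under 0.05. With PM averaged their log2 fold changes were 0.08 ± 0.07 for Ndufs3, 0.02 ± 0.06 for Ndufs7 and 0.01 ± 0.06 for Ndufs8. With metformin averaged they were 0.05 ± 0.07 for Ndufs3, −0.02 ± 0.06 for Ndufs7 and −0.03 ± 0.06 for Ndufs8. Over these genes all intervals of the averaged effects lay between −0.15 and 0.22.

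Among the 9 matrix-arm accessory subunits, 0 were called with PM averaged by edgeR, DESeq2 or limma-voom, where 8.63% of all genes tested rose. At an unadjusted p under 0.05, 3 of the 9 were higher (Ndufs6, Ndufa12 and Ndufa9), against 15.2% of all genes. Ndufs6, a zinc-binding subunit near the quinone module, had 34.1, 30.6 and 39.7 CPM in metformin PM libraries, against 28.6, 29.3 and 27.4 CPM in metformin PBS libraries. It had 29.2, 35.8 and 31.9 CPM in vehicle PM libraries, against 31.5, 30.6, 30.9 and 26.98 CPM in vehicle PBS libraries. The groups were apart with metformin and overlapped with vehicle. The log2 fold change of PM on metformin, 0.28 ± 0.10, was the highest of the nuclear members and was not called (edgeR adjusted p = 0.0786), and among the alternatives it was called without metformin PM 3. Ndufs4, an accessory subunit of the same region, had a PM effect of 0.28 ± 0.11 on metformin (edgeR adjusted p = 0.107; called without metformin PBS 1). Its difference of the PM effects, 0.29 ± 0.15, was the most positive of the nuclear members (edgeR adjusted p = 0.482). Of the lowest values, Ndufa6 had −0.05 ± 0.07 and Ndufa7 had −0.01 ± 0.07 with PM averaged.

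Among the 19 membrane-arm accessory subunits tested, 0 were called in any comparison by edgeR, DESeq2 or limma-voom. With PM averaged 18 of them had a log2 fold change above 0, against 50.5% of all genes tested, with a median of 0.10. Of the 19, 3 were higher at an unadjusted p under 0.05, a share near the 15.2% of all genes. The highest were Ndufc2 at 0.18 ± 0.06 (edgeR adjusted p = 0.0638) and Ndufa11 at 0.15 ± 0.07 (edgeR adjusted p = 0.165), and the lowest was Ndufa13, also known as the cell death gene GRIM-19, at −0.01 ± 0.05. With metformin averaged, the lowest were Ndufs5 at −0.13 ± 0.07 and Ndufa11 at −0.11 ± 0.07, and the highest was Ndufc1 at 0.12 ± 0.08, all uncalled.

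Ndufb4, a membrane-arm accessory subunit, had 19.2, 19.0 and 17.3 CPM in metformin PM libraries, against 20.5, 20.1 and 19.6 CPM in metformin PBS libraries. With vehicle it had 21.7, 21.5 and 20 CPM in PM libraries, against 17.9, 19.0, 17.4 and 15.7 CPM in PBS libraries. PM values lay below PBS values with metformin and above them with vehicle, without overlap in either arm. The PM effect was −0.11 ± 0.10 on metformin and 0.27 ± 0.09 on vehicle, and the difference of −0.38 ± 0.14 was the most negative of the members (unadjusted p = 0.0127; edgeR adjusted p = 0.233, not called). Of its 75-base windows 17.2% also occur in other transcripts, first of all those of the intronless copy Ndufb4c, which had 0 counts.

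Ndufab1, the mitochondrial acyl carrier protein found in both arms, had a PM effect of 0.13 ± 0.06 averaged, with an interval of −0.01 to 0.27. Ndufa4 (ENSMUSG00000029632; chr6:11900373-11907446, minus strand) was named as a complex I subunit but is known as a subunit of complex IV. It had 97.4, 87.0 and 88.4 CPM in metformin PM libraries, against 84.0, 68.8 and 78.5 CPM in metformin PBS libraries, a log2 fold change of 0.24 ± 0.07 (edgeR adjusted p = 0.0308). It had 85.7, 86.8 and 92.2 CPM in vehicle PM libraries, against 83.6, 85.7, 82.3 and 81.3 CPM in vehicle PBS libraries, and there it was not called (0.08 ± 0.07; edgeR adjusted p = 0.606). PM libraries lay above PBS libraries in both arms, and with PM averaged Ndufa4 rose by 0.16 ± 0.05 (edgeR adjusted p = 0.0278). On metformin the call was lost with DESeq2, with only these 2 groups in the fit, and without metformin PBS 3 or 4 or any metformin PM library. With PM averaged it was lost without metformin PBS 3, vehicle PM 2, vehicle PM 3 or metformin PM 1. Without Ndufa4, 0 of 36 nuclear members tested were called in any comparison by edgeR, DESeq2 or limma-voom, and with PM averaged 7 of them were higher at an unadjusted p under 0.05, against 15.2% of all genes.

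The accessory subunits at either end of each comparison differed from one comparison to the next. With PM on vehicle the highest were Ndufb4 at 0.27, Ndufc2 at 0.18 and Ndufa2 at 0.18, and the lowest were Ndufa1 at −0.04, Ndufa6 at −0.03 and Ndufa7 at −0.03. With PM on metformin the highest after Ndufs6, Ndufs4 and Ndufa4 was Ndufc1 at 0.20, and the lowest were Ndufb4 at −0.11, Ndufa13 at −0.07 and Ndufa6 at −0.07. Ndufa4 apart, none of these was called. Metformin after PBS had Ndufa6 at 0.19, Ndufb4 at 0.19 and Ndufa5 at 0.12 at the top, and Ndufa11 at −0.16, Ndufb6 at −0.12, Ndufa4 at −0.11 and Ndufs4 at −0.11 at the bottom. Metformin after PM had Ndufc1 at 0.21, Ndufs4 at 0.18 and Ndufa6 at 0.15 at the top, and Ndufb4 and Ndufb10 at −0.18 and Ndufs5 at −0.16 at the bottom. In the difference of the PM effects Ndufs6 (0.18) and Ndufc1 (0.18) followed Ndufs4, and Ndufb10 (−0.18) and Ndufa5 (−0.16) followed Ndufb4. None of these values for metformin or for the difference was called.

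As a group, 32 of 37 nuclear members had a log2 fold change above 0 with PM averaged, against 50.5% of all genes tested, and the median was 0.08 against 0.00. At an unadjusted p under 0.05, 8 of 37 were higher and 0 lower, against 15.2% of all genes higher and 13.8% lower. Across the 21 alternatives 29 to 33 of them lay above 0. Ndufa4 apart, single nuclear genes passed the adjusted threshold with PM averaged only when a library was left out, namely Ndufa2 and Ndufv2 without metformin PBS 1, Ndufc2 without vehicle PM 3 or metformin PM 1, Ndufs6 without metformin PM 3 and Ndufa9 without vehicle PBS 2.

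**Figure D4:**
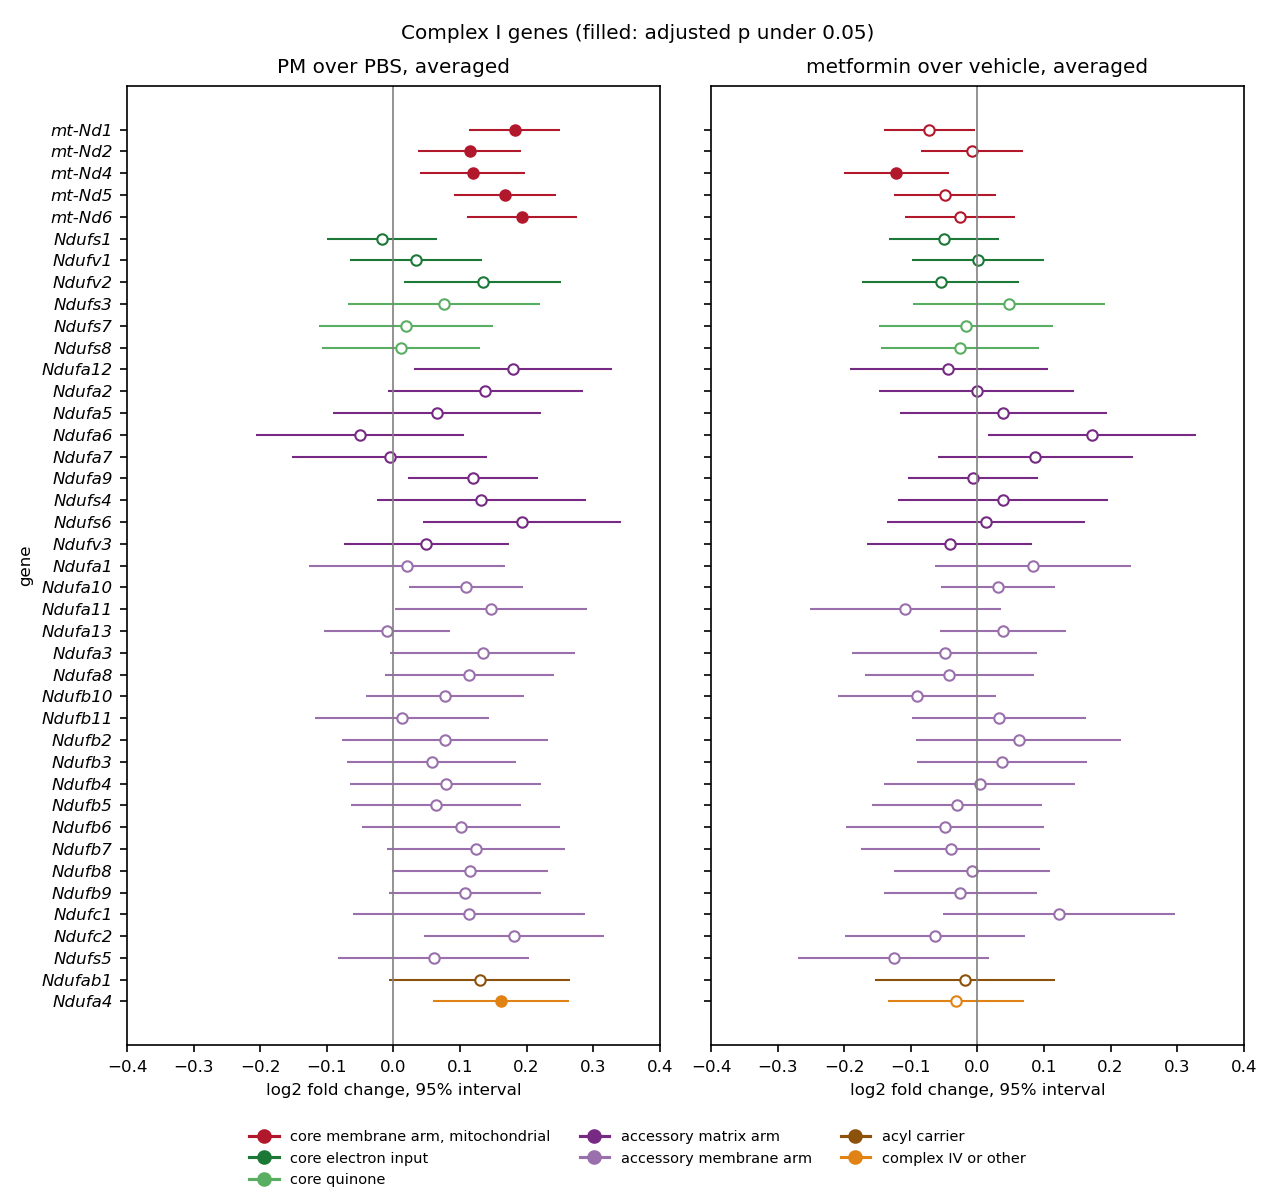
Log2 fold change with its 95% interval for 41 complex I genes, for PM over PBS averaged over drinking water (left) and metformin over vehicle averaged over instillate (right); filled points have an adjusted p under 0.05 by edgeR, and colours give the part of the complex. mt-Nd4l, with 96 counts, is not drawn because its interval runs from −0.83 to 0.79 with PM. On the left 5 mitochondrial genes and Ndufa4 are filled, and on the right only mt-Nd4 at −0.12.

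Of 21 complex I assembly factors tested, 0 were called for PM in either arm or averaged (edgeR, DESeq2 and limma-voom), where 8.63% of all genes rose and 7.76% fell with PM averaged. At an unadjusted p under 0.05, 1 was lower on vehicle, against 8.54% of all genes, and 3 were higher on metformin, against 14.3%, shares below and near those of all genes. Ndufaf3, an early assembly factor, had 8.19, 5.61 and 6.85 CPM in metformin PM libraries, 12.01, 8.86 and 8.45 CPM in vehicle PM libraries, 8.02, 5.42 and 8.32 CPM in metformin PBS libraries, and 9.50, 10.3, 8.61 and 10.2 CPM in vehicle PBS libraries. All metformin libraries lay below all vehicle libraries, which was so for 0.672% of genes tested, and Ndufaf3 fell with metformin averaged (−0.46 ± 0.13; edgeR adjusted p = 0.027). It was the only assembly factor called, 1 of 21, a share near the 5.41% of all genes that fell with metformin averaged. That call was lost without vehicle PBS 2, metformin PBS 3, vehicle PM 1 or metformin PM 3, where the adjusted p reached 0.0901.

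Of the other 6 mitochondrially encoded protein genes, mt-Cytb, a subunit of complex III, and mt-Atp8, a subunit of ATP synthase, rose with PM on metformin (0.27 ± 0.05 and 0.41 ± 0.09; edgeR adjusted p = 0.000595 and 0.00551). Both also rose with PM averaged, by 0.20 ± 0.03 and 0.27 ± 0.06. mt-Co1, the catalytic subunit of complex IV, was not called (0.11 ± 0.04 on metformin; edgeR adjusted p = 0.113). Neither mitochondrial ribosomal RNA was called in any comparison by edgeR, DESeq2 or limma-voom, and mt-Rnr2 had an unadjusted p under 0.05 with PM averaged (0.14 ± 0.05). Of 20 genes of mitochondrial transcription and RNA stability, Lrpprc and Slirp, which encode partners in stabilising mitochondrial messenger RNA, rose with PM averaged (0.18 ± 0.06 and 0.17 ± 0.05; edgeR adjusted p = 0.0382 and 0.0269; kept in 13 and 11 of 21 alternatives and lost with DESeq2). Fastkd5, a mitochondrial RNA-processing factor, rose with PM on metformin (0.85 ± 0.24; edgeR adjusted p = 0.0256), a call lost with DESeq2 and without metformin PBS 3, metformin PBS 4, metformin PM 3 or metformin PM 4. Mterf3, a member of the mitochondrial transcription termination factor family, was the only gene of this list called with metformin (0.23 ± 0.07 averaged over instillates; edgeR adjusted p = 0.029). That call was kept in 13 of 21 alternatives. It was lost with DESeq2, without the expression filter and with replicate number as a block. The same call was also lost without vehicle PBS 1, metformin PBS 4, vehicle PM 3, metformin PM 3 or metformin PM 4. Of these 20 genes, 2 rose with PM averaged, 1 with PM on metformin and 1 with metformin averaged. These shares are near the 8.63%, 7.18% and 5.41% of all genes tested that rose. Tfam, the packaging and transcription factor of mitochondrial DNA, was not called (−0.20 ± 0.11 on metformin; edgeR adjusted p = 0.249).

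Of 10 genes tested for other enzymes that pass electrons to ubiquinone, Sdhb, an iron-sulfur subunit of complex II, was the only one called, and it rose with PM averaged (0.15 ± 0.04; edgeR adjusted p = 0.0215). The call was lost with DESeq2 and without metformin PBS 4, vehicle PM 2, vehicle PM 3, metformin PM 1 or metformin PM 3. Of all genes tested 8.63% rose with PM averaged, a share near this 1 of 10.

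Of 7 nuclear regulators of mitochondrial genes tested, the coactivator gene Ppargc1b and the nuclear receptor gene Esrra fell with PM on metformin. Of all genes tested, 5.60% fell in that comparison and 2.81% fell with metformin after PM. Ppargc1b had 6.45, 6.11 and 7.31 CPM in metformin PM libraries, 12.6, 10.9 and 10.9 CPM in vehicle PM libraries, 9.003, 12.7 and 14.0 CPM in metformin PBS libraries, and 11.4, 12.4, 12.1 and 14.7 CPM in vehicle PBS libraries. Of all genes tested, 13.9% lay wholly lower with PM on metformin and 13.1% with metformin after PM. For Ppargc1b, every metformin PM library lay below all others. The log2 fold change was −0.86 ± 0.17 for PM on metformin and −0.80 ± 0.17 for metformin after PM (edgeR adjusted p = 0.00203 and 0.00611), and these calls held in all 22 alternatives. It also fell with PM averaged (−0.50 ± 0.11; edgeR adjusted p = 0.00421) and with metformin averaged (−0.44 ± 0.11; edgeR adjusted p = 0.0147). Esrra fell by 0.29 ± 0.07 and 0.27 ± 0.07 on the log2 scale in the same 2 comparisons (edgeR adjusted p = 0.0103 and 0.0236), and the second call was kept in 17 of 22 alternatives. The difference of the PM effects was not called for Ppargc1b (−0.72 ± 0.22; edgeR adjusted p = 0.135) or Esrra (−0.34 ± 0.10; edgeR adjusted p = 0.1). Nrf1 and Gabpa, whose products are known activators of respiratory chain genes, were not called (−0.06 ± 0.10 and 0.03 ± 0.06 for PM on metformin). Ppargc1a had 0 CPM in every library. The complex I members, set beside these, had no called fall in the same 2 comparisons.

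Promoters were searched for the consensus of the activator NRF1 on both strands, in the 250 bases upstream of RefSeq starts (build GRCm38.p6). It was present in 7 of 35 promoters of nuclear members, against 3.7% of all 32851 promoters, and in 6 of the 33 member genes with an entry. The 6 genes were Ndufa5, Ndufa8, Ndufa11, Ndufb4, Ndufs5 and Ndufs6. The YY1 letters AANATGGC were found in 14.3% of member promoters against 3.9% of all, the ESRRA letters TNAAGGTCA in 2.9% against 1.1%, and the GABPA letters CCGGAAGT in 0% against 2.9%. The stretches below are 100 bases long, are shown for 3 of the 6 genes whose values are given above, and carry 1 NRF1 match each in capitals. A match is only a description of these letters, and the promoters of all genes were not matched to the members by expression or base composition. They are chr13:73328483-73328582 (minus strand) for Ndufs6, chr17:56717662-56717761 (plus strand) for Ndufa11 and chr16:37654480-37654579 (minus strand) for Ndufb4, which had 3 matches in its 250 bases.
Ndufs6: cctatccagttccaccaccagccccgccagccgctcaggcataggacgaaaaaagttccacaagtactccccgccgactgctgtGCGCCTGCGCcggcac
Ndufa11: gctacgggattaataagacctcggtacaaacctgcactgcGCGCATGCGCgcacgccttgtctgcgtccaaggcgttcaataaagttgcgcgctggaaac
Ndufb4: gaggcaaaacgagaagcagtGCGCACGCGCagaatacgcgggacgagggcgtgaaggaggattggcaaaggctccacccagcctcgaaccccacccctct

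Per kb of the length given in the table, nuclear members ranged from 2.88 ± 0.233 CPM per kb for Ndufb2 to 172 ± 12.8 for Ndufa4 (SD over 13 libraries). After Ndufa4 came Ndufa1 at 77.6 ± 6.41, Ndufa2 at 69.1 ± 6.34, Ndufb9 at 63.9 ± 3.83 and Ndufa6 at 61.2 ± 6.60. The SD ranges of these last 4 overlapped from each gene to the next, while Ndufa4 stood clear. The lowest after Ndufb2 were Ndufab1 at 3.04 ± 0.220, Ndufb5 at 4.86 ± 0.310, Ndufs1 at 5.82 ± 0.262 and Ndufb8 at 7.91 ± 0.526. Much of that order came from the lengths, since the table gives Ndufs1 16765 bases against a coding length of 2181. Per kb of coding length, a choice made after the data were seen, the range narrowed to 29.9 for Ndufv3 up to 344 for Ndufa4, and Ndufb2 stood at 68.6. Ndufa4, Ndufa1 and Ndufa2 were in the top 5 by the table's length, by coding length and by the exons of the reference annotation. Among members without a test, Ndufa4l2 had 9 counts and Ndufa11b had 2 counts in all libraries, and Ndufb4c, Ndufs6b and Ndufab1-ps had none.

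**Figure D5:**
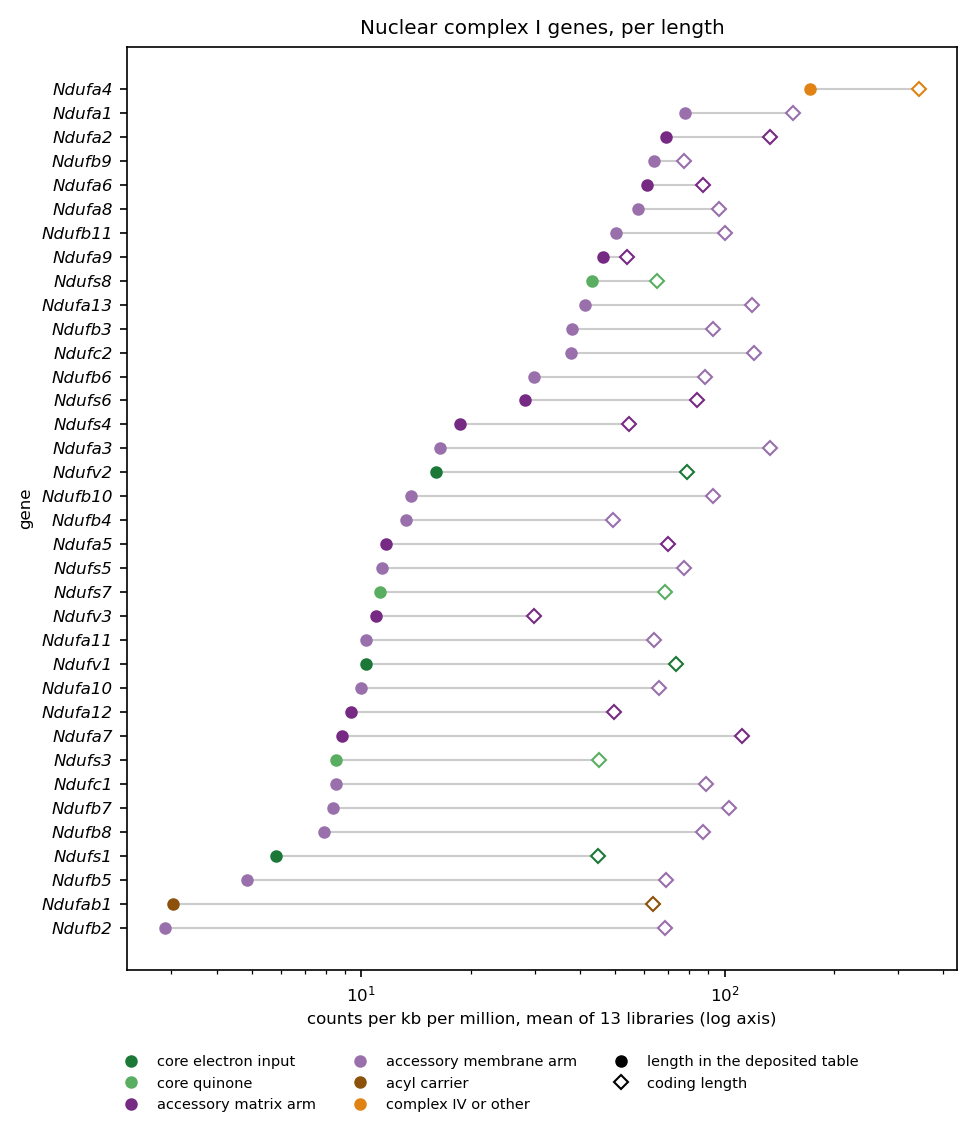
Level of nuclear complex I genes, in CPM per kb as the mean of 13 libraries (log axis), by the length in the deposited table (filled circles) and by coding length (open diamonds), with colours for the part of the complex. Ndufa4 is highest by both, at 172 and 344, while Ndufb2 moves from 2.88 to 68.6.

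Some members share sequence with other genes. An exon of 17 nuclear members overlaps another gene, and 10 share over 10% of their 75-base windows with transcripts of other genes. These include Ndufb6 with Smim27 (27.8%), Ndufa13 with Tssk6 (25.6%), Ndufs3 with Gm12251 (12.2%) and Ndufb4 as given above. They also include the pseudogenes Ndufb4c (100%) and Ndufab1-ps (59.9%), which had 0 counts. Apart from these pseudogenes, counts of the genes are uncertain to that extent.

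Genes of the cell type marker lists moved with PM in the same libraries, and which cells made these RNAs was not tested. Of all genes tested, 2.60% rose and 2.26% fell with PM on vehicle, and 7.18% rose and 5.60% fell on metformin. With PM averaged 8.63% rose and 7.76% fell. There, 6 of 8 monocyte and monocyte-derived macrophage markers rose, and 1 fell by edgeR but not by DESeq2 or limma-voom. Of 3 neutrophil markers tested, 1 fell with PM averaged. Of 8 monocyte and monocyte-derived macrophage markers tested, 5 rose with PM in each drinking-water arm, among them Mmp14, Mmp12, Itgam and Cd14, whereas the defining markers Ly6c2 and Cx3cr1 stayed under 1 CPM in every library. The list of 10 summed to 3201 to 3641 CPM in metformin PM libraries, 3152 to 4258 CPM in vehicle PM libraries, 2703 to 3239 CPM in metformin PBS libraries and 2348 to 2753 CPM in vehicle PBS libraries. Of 6 epithelial markers tested, Sftpa1, Sftpb and Sftpc rose and Epcam fell with PM on metformin. That list of 8 summed to 170.2 to 218 CPM in metformin PM libraries, 132 to 177 CPM in vehicle PM libraries, 160 to 218 CPM in metformin PBS libraries and 142 to 176 CPM in vehicle PBS libraries. Of 5 endothelial and stromal markers tested, 3 rose with PM on metformin, and the list of 6 summed to 26.2 to 44.0 CPM in metformin PM libraries, 11.6 to 28.4 CPM in vehicle PM libraries, 11.7 to 18.3 CPM in metformin PBS libraries and 11.0 to 21.1 CPM in vehicle PBS libraries. Jchain and Igkc of the lymphocyte list and the platelet gene Pf4 rose with PM in both arms. Of the alveolar macrophage markers, 6 of 11 rose and 3 fell with PM on metformin, Siglecf, Ear1 and Ear2 being lower. With metformin averaged, 3 of these 11 fell (Marco, Car4 and Fabp4), beside the lower mt-Nd4, where 5.41% of all genes fell. In bulk RNA, fewer cells of a type and less RNA per cell cannot be told apart, and the part of these markers in the mitochondrial changes was not tested.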

How the data were processed

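Values were read counts per gene, as deposited by the authors in 1 table of 43430 Ensembl genes and 13 libraries. Per the submitters' processing notes, reads were handled with bcl2fastq 2.19, TopHat2 and HTSeq on mm10, and edgeR is named too. Per the labels' protocols, polyadenylated libraries that keep no strand were made from 100 ng RNA (integrity number above 7) and read for 75 bases from 1 end. The annotation release and the handling of reads with several matches are not given in the sources used here. The table's other columns, also deposited by the authors, give coordinates and a length per gene.

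Symbols matched 42462 IDs. Genes passing edgeR's expression filter (11906) were fitted with TMM scaling and the quasi-likelihood test over all 4 groups (edgeR 4.0.16, R 4.3.3). Adjustment of p-values was over all genes. The method was also run on simulated data, whose planted changes were larger than any called in a complex I member. That run therefore does not bear on changes as small as these. CPM are counts per 1000000 of each library's TMM-scaled total over tested genes, and levels per kb use the unscaled total of all genes. Alternatives were DESeq2 1.42.0, limma-voom (limma 3.58.1), other scalings and filters, library sizes without mitochondrial genes, a replicate block, only the 2 groups compared, and each library left out. Python 3.11.15, pandas 2.3.3 and Matplotlib 3.10.9 made summaries and figures.

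Named were all mitochondrial and nuclear core members (1 is not reported here), every called member, in each comparison the 3 highest and 3 lowest accessory members, and the 5 highest and 5 lowest by level. The members and the gene lists were chosen with earlier results of these data known. Libraries held 5567481 to 8100538 counts.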

Additional observations from a re-analysis of the deposited data

Results flagged for a closer look

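In the vehicle PBS group, the 1 group of 4 libraries, a single library stood apart from the others in 5 of 46 sets of values examined, by Dixon's test with a critical value of 0.829. Chance gives about 1 such set in 20. Ndufa11 was 29.93 CPM in vehicle PBS 2, and Ndufb11 was 49.86 CPM in vehicle PBS 1. Vehicle PBS 4, the library with the fewest counts, was lowest for mt-Nd4 at 639.6 CPM and for mt-Nd5 at 944.2 CPM. The ratio of the mitochondrial to the nuclear complex I sum, the latter without Ndufa4, was 2.621 in vehicle PBS 3, above the other libraries of that group.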

How the results depend on the processing

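No called value reversed its direction under any alternative run, and the median over all genes stayed between −0.016 and 0.016 on the log2 scale. For PM on metformin, the nuclear count of 1 became 0 with DESeq2 and with only the 2 groups fitted, and ran from 0 to 2 with 1 library left out. The mitochondrial count of 5 became 3 with only the 2 groups and ran from 2 to 5. For metformin after PBS, the mitochondrial count of 1 became 0 with RLE scaling, with at least 5 CPM in 3 libraries and with only the 2 groups, and ran from 0 to 1. With PM averaged the nuclear count of 1 ran from 0 to 3 and the mitochondrial count of 5 from 3 to 5, and with metformin averaged the mitochondrial count of 1 ran from 0 to 1. The causes were not tested. Replicate numbers did not pair the samples (1 of 16 same-numbered pairs had a correlation of deviations over 0.1, and the median was −0.00164). With the replicate block, mitochondrial counts were 0 for metformin after PBS, 3 for PM averaged and 0 for metformin averaged. The median nuclear level of 13.7 CPM per kb became 27.4 by annotated exons and 79.0 by coding length, and the mitochondrial median of 592 became 824.8 over unshared windows. Counts were too few to test mt-Nd3 and 5 nuclear members, and p-values rest on 3 or 4 libraries a group.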
